A study of Mus musculus with 16 samples.

Results

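Retinoid storage and breakdown genes are described here in the skin of mice exposed to ultraviolet B (UVB). The 9 genes were chosen by name from the 24421 genes of the deposited table, for their roles in binding, storing, oxidizing, breaking down or sensing vitamin A: Stra6, Crabp2, Lrat, Rdh10, Dhrs9, Aldh1a3, Cyp26b1, Rarg and Rxra. All 9 passed the filter on low counts in every comparison. RNA sequencing covered 16 libraries in 8 groups of 2. The mice were female and of the SKH-1 strain, which lacks fur and is used to study skin cancer caused by light. Epidermis was taken at weeks 2, 15 and 25 from unexposed mice (control) and from mice given 60 mJ/cm2 of UVB in 2 sessions per week. At week 25, whole skin came from unexposed mice and tumors from exposed mice. The sources used here give neither the age of the mice nor the number of animals behind each library.

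Retinol, the alcohol form of vitamin A, enters cells from its carrier in blood and is either stored as a fatty acid ester or oxidized. Oxidation first gives retinal, in a reversible step, and then retinoic acid, in an irreversible one. Retinoic acid binds pairs of nuclear receptors that switch genes on, and is removed by cytochrome P450 enzymes of the CYP26 family. In epidermis, retinoic acid is known for slowing terminal differentiation of keratinocytes, and it acts on the hair follicle and the sebaceous gland. The transcripts of these steps were measured; amounts of retinoids, enzyme activity and flux through the pathway were not.

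Library totals ran from 2905165 to 7959503 counts, with the lowest in control 1 of week 2. Libraries are named 0 and 1 as in their titles. Levels are CPM, counts scaled to a common library size by TMM, given per library or as mean ± SD, and differences are log2 ratios ± the standard error of the fit. Genes with an adjusted p under 0.05 in edgeR's quasi-likelihood test are called. Nothing in the labels says whether the 2 libraries of a group are from different animals, so the p-values rest on a spread between libraries that could be technical only. The epidermis libraries carried 3146 to 7962 CPM of differentiated keratinocyte markers in sum, led by Krtdap, and 14.8 to 187 CPM of fibroblast markers, led by Dcn. Skeletal muscle markers summed to 1481 to 2691 CPM in the 4 whole skin and tumor libraries and to 12.9 to 68.6 CPM in the 12 epidermis libraries. Under UVB, as the mean over weeks in epidermis, 14.4% of all genes tested were called higher and 15.1% lower. In the same comparison all 9 tested hair follicle markers fell and all 6 proliferation markers rose. Some of these hair follicle markers, such as Dsg4 (18.3 CPM in control and 0.718 CPM in UVB epidermis), passed the filter through the control libraries. Macrophage markers had 3 of 5 tested called up and 0 down, Langerhans and dendritic cells 2 of 5 up, fibroblasts 1 of 6 up and endothelial cells 1 of 2 up. Some of the tested markers of these cells passed the filter through the UVB libraries, where they are high. Examples are Flt3 (0.309 CPM in control and 2.91 CPM in UVB epidermis) and Cd163 (0.848 and 7.16 CPM). The marker counts are therefore descriptions. Differentiated keratinocyte markers had 2 of 8 called down, T cells 2 of 4 and melanocytes 1 of 5, basal keratinocytes had 1 of 7 up and 1 down, and sebaceous gland (7 tested), adipocyte (2) and muscle (5) markers had 0 called. In bulk RNA, fewer cells of a type and less RNA per cell cannot be told apart.

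The stretches upstream of Lrat, Cyp26b1 and Dhrs9 are shown because these genes made the clearest moves described below, one up, one down and one in both directions. Each is the 150 bases directly before the gene's start as counted in the deposited table, 5′ to 3′ on the gene's strand, from the RefSeq promoter table (GRCm38.p6, the assembly of mm10). Capitals mark a TATA box motif (TATAAA, searched on both strands, so that overlapping matches on the 2 strands run together in Dhrs9) and an AP-1 motif (TGACTCA), the site of the Fos and Jun factors. They lie at chr3:82903975-82904124 (Lrat, minus strand), chr6:84593909-84594058 (Cyp26b1, minus strand) and chr2:69380312-69380461 (Dhrs9, plus strand).
Lrat: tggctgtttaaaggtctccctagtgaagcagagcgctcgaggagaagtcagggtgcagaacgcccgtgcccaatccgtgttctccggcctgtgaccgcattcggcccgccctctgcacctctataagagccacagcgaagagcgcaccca
Cyp26b1: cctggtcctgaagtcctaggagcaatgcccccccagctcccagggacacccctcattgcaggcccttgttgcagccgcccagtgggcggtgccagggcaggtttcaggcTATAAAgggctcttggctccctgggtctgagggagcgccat
Dhrs9: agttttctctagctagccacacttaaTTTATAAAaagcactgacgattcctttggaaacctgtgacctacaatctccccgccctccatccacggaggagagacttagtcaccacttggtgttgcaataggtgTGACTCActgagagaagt
In the 150 bases before the RefSeq start, TATAAA was found in 7.57% and TGACTCA in 2.84% of the 32851 promoters of the table. The Cyp26b1 stretch shown is a different window, from -248 to -99 of its RefSeq start, with TATAAA at -139 to -134. Receptors for retinoic acid are known to bind direct repeats of a short site, AGGTCA or near it, often with 5 bases between the copies. The search used AGGTCA itself, its variant GGGTCA, the form AGTTCA and the form GGTTCA, in any pairing and on both strands. Such repeats were found in 0.222% of all windows of 300 bases at a spacing of 1 base, in 0.268% at 2 bases and in 0.0974% at 5 bases. Of the 9 genes, 6 matched the table, with 11 windows, and these letters were found in 0 of the 11. Crabp2, Aldh1a3 and Rdh10 had no entry in the table. The repeat with 5 bases between its copies is shown in capitals for comparison in 2 textbook retinoic acid targets, Rarb (chr14:16575507-16575535, minus strand) and Cyp26a1 (chr19:37697770-37697798, plus strand, where the site reads on the other strand).
Rarb: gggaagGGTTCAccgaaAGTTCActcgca
Cyp26a1: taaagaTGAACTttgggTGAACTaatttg
A match in these letters is a description of the sequence and not a binding site, and the absence of one says only that the letters are not in the window.

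UVB epidermis carried more Lrat, the retinol esterification gene, and less Cyp26b1, the retinoic acid breakdown gene, than control epidermis at each of the 3 weeks. As the mean over weeks, Lrat and Aldh1a3 rose and Cyp26b1 fell. These 3 of the 9 genes are close to the share of all 13478 genes tested that was called, 29.5% (14.4% higher, 15.1% lower). At week 2 Lrat, Dhrs9 and Aldh1a3 rose and Cyp26b1 fell, 4 of the 9, against 17.8% of all genes called (8.09% higher, 9.74% lower). Stra6 was also called lower for the mean and at week 2, but it passed the filter through its control libraries and is not counted here. The counts of called members under alternative fits, given at the end, include it. At week 15 Lrat rose and Cyp26b1 fell, with 3.49% of all genes called (1.85% higher, 1.64% lower). At week 25 Lrat and Aldh1a3 rose and Cyp26b1 and Dhrs9 fell, with 21.5% of all genes called (10.6% higher, 10.9% lower). The median of the 9 genes was -0.15 for the mean over weeks, beside -0.02 over all genes tested. Crabp2, Rdh10, Rarg and Rxra were not called at any week in epidermis.

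**Figure D1:**
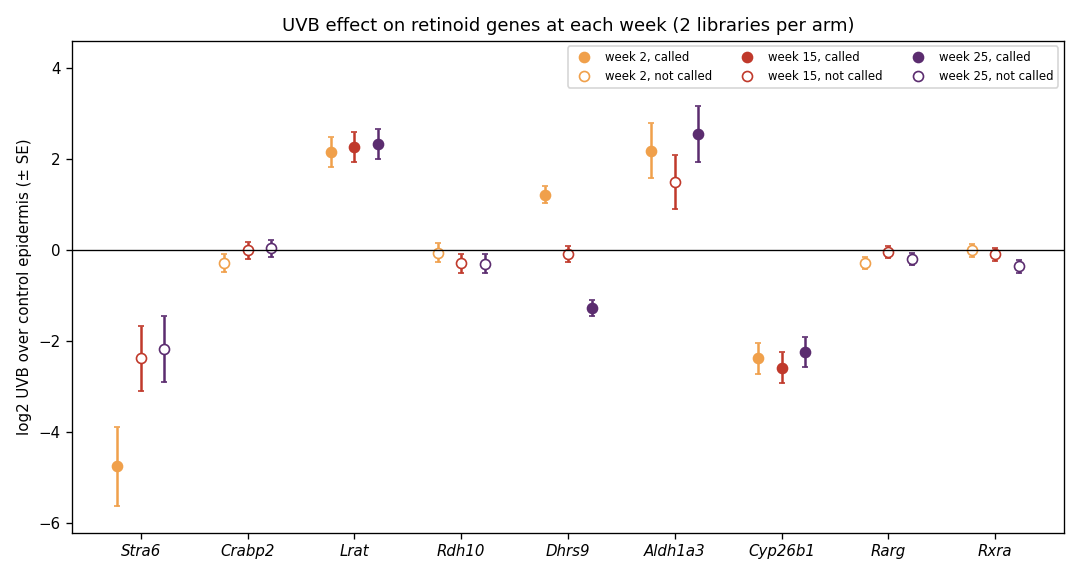
UVB over control epidermis for each of the 9 genes at weeks 2, 15 and 25, as log2 ratio ± standard error (vertical axis); filled points had an adjusted p under 0.05 and open points did not. Lrat lies near 2.2 and Cyp26b1 near -2.4 at every week, while Dhrs9 goes from 1.22 at week 2 to -1.27 at week 25.

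Stra6 encodes a membrane receptor that takes up retinol from its blood carrier RBP4. Control epidermis held 29 and 12 Stra6 counts at week 2 (5.52 and 5.08 CPM in libraries 0 and 1), 24 and 12 at week 15 and 24 and 8 at week 25. UVB epidermis held 1 and 1 counts at week 2, 5 and 3 at week 15 and 4 and 3 at week 25. All 6 UVB libraries, at 0.174 to 0.782 CPM, lay below all 6 controls, at 1.23 to 5.52 CPM. Over the 3 weeks the mean difference was -2.91 ± 0.50 (adjusted p = 0.00142). At week 2 the control arm exceeded the UVB arm 29.8-fold in CPM, with a 95% interval of 7.74 to 254 that covers counting error only. The fitted difference there was called (adjusted p = 0.00739), while those at week 15 (-2.38 ± 0.71, adjusted p = 0.0893) and week 25 (-2.17 ± 0.73, adjusted p = 0.0552) were not. Stra6 passed the filter through its control libraries, where it is high, so its call is given as a description of these libraries. Without UVB 1 the call at week 2 was lost (adjusted p = 0.079), and without control 1 Stra6 was called at week 15 (adjusted p = 0.0369) and week 25 (adjusted p = 0.0499). It was also called at week 25 without a filter (adjusted p = 0.0481).

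Crabp2 encodes a small carrier that delivers retinoic acid to its receptors in the nucleus. Per kilobase of exon it was the most abundant of the 9 genes, at 236 ± 63.6 CPM per kb in control and 224 ± 23.3 CPM per kb in UVB epidermis (n = 6 each). At week 2 the controls stood at 216 and 324 CPM and the UVB libraries at 225 and 229 CPM, so the arms overlapped. Over weeks 15 and 25 all 8 epidermis libraries lay between 171 and 204 CPM. As the mean over weeks the arms differed by -0.08 ± 0.11 (adjusted p = 0.615). The 324 CPM belong to the shallowest library, control 1 of week 2, in which genes of at least 1 count per base were higher than in control 0 (median log2 0.79). Crabp2 held 0.623 to 1.47 counts per base, 29.6 to 75.6% of the highest value among genes of at least 500 exon bases in the same library. That highest value was 1.83 in the shallowest library and 2.005 in the deepest. Over the 16 libraries it was largest, at 2.11, in whole skin 1, a library of 4854612 counts, so it did not simply follow depth. As the mean over weeks 8.93% of genes with at least 1 count per base were called, beside 27.3% of those with 0.4 to 1. The counts are from alignments with duplicates removed, and the part of this in the Crabp2 levels and differences was not tested. At week 2 Crabp2 was called lower without control 0 (-0.49, adjusted p = 0.0265), and without control 1 it stood at 0.06 (adjusted p = 0.832).

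Lrat encodes lecithin retinol acyltransferase, which joins retinol to a fatty acid for storage. Control epidermis stood at 33.5 and 27.9 CPM at week 2, at 15.99 and 15.6 CPM at week 15 and at 13.3 and 16.02 CPM at week 25. UVB epidermis stood at 117 and 164 CPM at week 2, at 47.4 and 106 CPM at week 15 and at 72.2 and 79.1 CPM at week 25. Every UVB library lay above every control library of any week, and the lowest UVB library, at 47.4 CPM, was above the highest control at 33.5 CPM. Lrat rose by 2.16 ± 0.33 at week 2 (adjusted p = 0.00457), by 2.27 ± 0.34 at week 15 (adjusted p = 0.00974) and by 2.34 ± 0.34 at week 25 (adjusted p = 0.00256). Over the 3 weeks the mean rise was 2.25 ± 0.18 (adjusted p = 2.91e-05), 97.7 ± 41.0 against 20.4 ± 8.24 CPM (n = 6 each). The rise did not differ detectably between weeks, with a difference of 0.18 ± 0.46 from week 2 to week 25 (adjusted p = 0.827). Within the controls the week 25 level was lower than at week 2 by a log2 of -1.07 ± 0.34, which did not pass the test (adjusted p = 0.0586) but was called by DESeq2 (adjusted p = 0.019) and without a filter (adjusted p = 0.0178). Without control 0 of week 15 the call at that week was lost (adjusted p = 0.1).

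**Figure D2:**
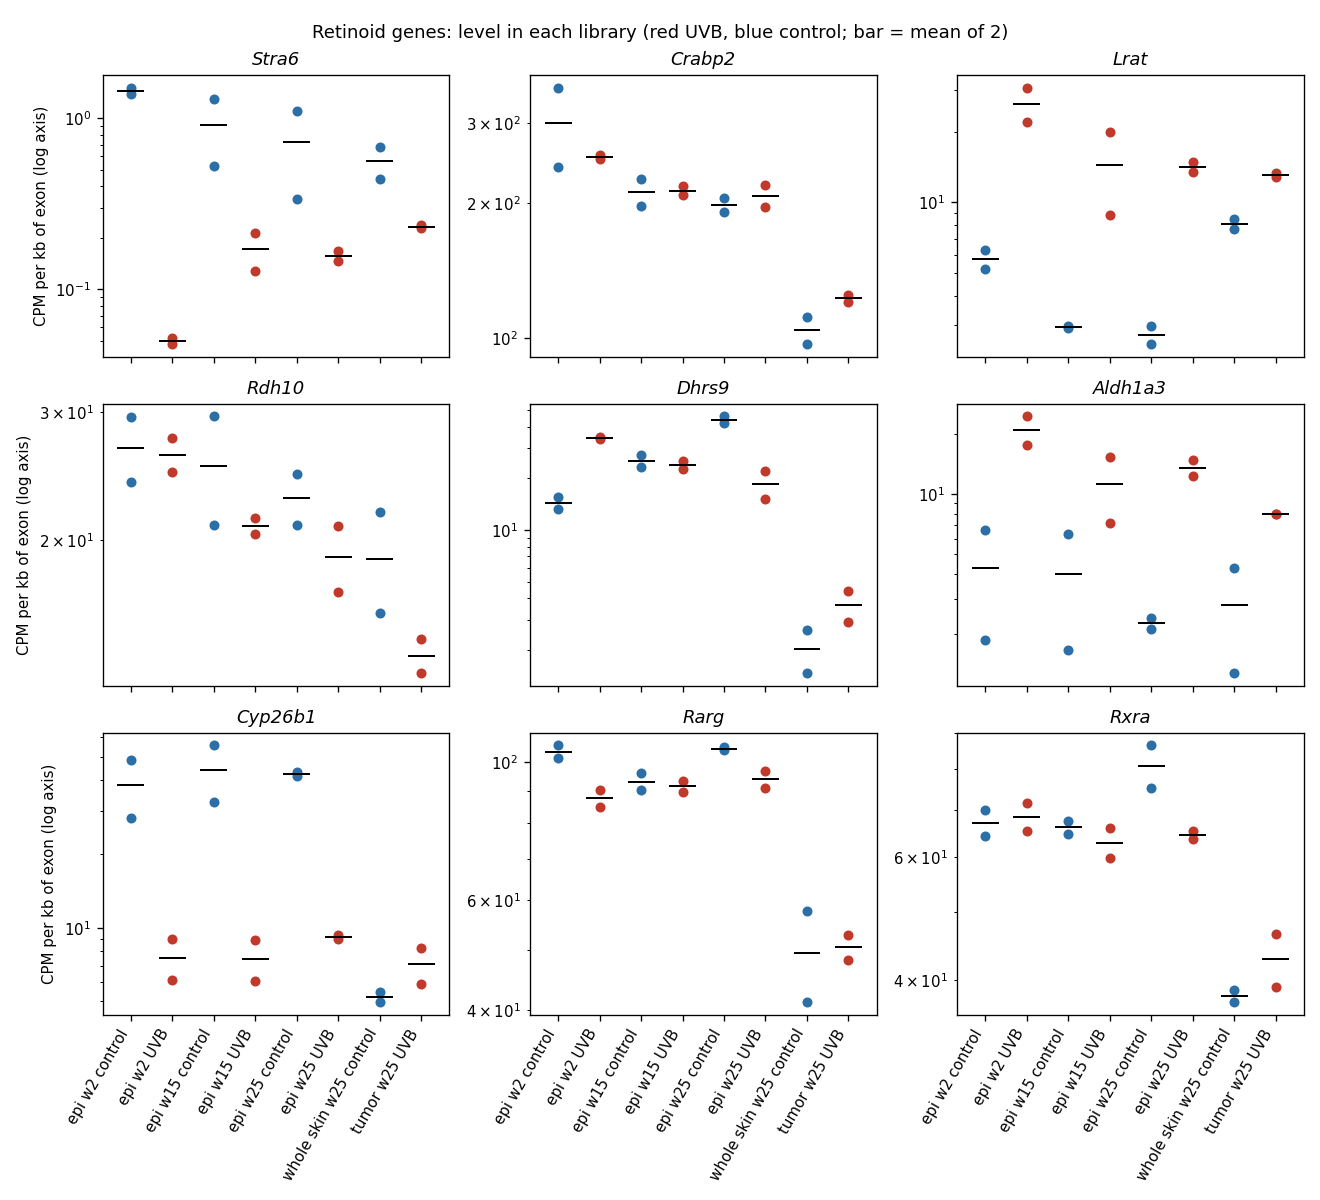
Level of each of the 9 genes in each of the 16 libraries, in CPM per kilobase of exon on a log axis that differs between panels; blue points are control and red points UVB libraries, and bars are means of 2. In epidermis the Lrat and Aldh1a3 points of UVB libraries lie above, and those of Cyp26b1 and Stra6 below, the controls of the same week, while Rdh10, Rarg and Rxra span a narrow range.

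Rdh10 encodes the retinol dehydrogenase that makes most retinal in the embryo. It was not called in any comparison. Control epidermis ranged from 48.1 to 67.9 CPM (median 55.9, n = 6) and UVB epidermis from 38.9 to 63.4 CPM (median 48.6, n = 6), and the arms overlapped. On average over weeks the arms differed by -0.22 ± 0.12 (adjusted p = 0.198). The lowest group mean of Rdh10 was in tumors, at 31.8 ± 2.41 CPM (n = 2), with 30.1 and 33.5 CPM in the 2 libraries.

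Dhrs9 encodes a short-chain dehydrogenase that can oxidize retinol to retinal, and its response to UVB turned from a rise to a fall. Control epidermis stood at 43.9 and 37.3 CPM at week 2, at 77.0 and 65.5 CPM at week 15 and at 119 and 130 CPM at week 25. UVB epidermis stood at 98.2 and 95.8 CPM at week 2, at 64.1 and 71.5 CPM at week 15 and at 42.7 and 62.3 CPM at week 25. The controls were lowest at week 2 and highest at week 25, and the UVB libraries the reverse, with no overlap between weeks in either arm. The arms overlapped at week 15 and not at the other weeks. Dhrs9 rose under UVB by 1.22 ± 0.19 at week 2 (adjusted p = 0.00478), differed by -0.08 ± 0.18 at week 15 (adjusted p = 0.838) and fell by 1.27 ± 0.18 at week 25 (adjusted p = 0.00266). The effect at week 25 was below that at week 2 by a log2 of -2.49 ± 0.27 (adjusted p = 0.00495), and it was the only one of the 9 genes called for this difference, with 7.92% of all genes called (3.33% higher, 4.59% lower). The mean over weeks, -0.07 ± 0.32 (adjusted p = 0.888), averages effects of opposite direction.

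Dhrs9 moved within both arms. In control epidermis it rose by 1.61 ± 0.19 from week 2 to week 25 (adjusted p = 0.00402), the only one of the 9 genes called there, with 13.7% of all genes called (8.47% higher, 5.24% lower). In UVB epidermis it fell by 0.88 ± 0.18 over the same weeks (adjusted p = 0.0288), with 4.52% of all genes called (4.04% higher, 0.482% lower). The fall within UVB libraries was not called when any 1 of its 4 libraries was left out (adjusted p = 0.0575 to 0.224) or when all 16 libraries were fitted together (adjusted p = 0.0777). The steps from week 2 to 15 (-1.30 ± 0.26, adjusted p = 0.31) and from 15 to 25 (-1.19 ± 0.26, adjusted p = 0.286) were not called, and edgeR called 0 genes for either. At an unadjusted p under 0.05, 1190 and 1315 genes passed, Dhrs9 in both, and DESeq2 called 49 and 62 genes, Dhrs9 among them (adjusted p = 0.0188 and 0.0272). The step from week 2 to 15 was called in edgeR without control 0 of week 2 (adjusted p = 0.0308). The difference from week 2 to week 25 was called without any 1 of its 8 libraries, control 1 of week 2 included, and ran from -2.79 to -2.26.

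Aldh1a3 encodes a retinal dehydrogenase, which makes retinoic acid. Control epidermis stood at 22.6 and 6.35 CPM at week 2 (119 and 15 counts), at 21.5 and 5.63 CPM at week 15 (109 and 35 counts) and at 7.25 and 8.16 CPM at week 25. UVB epidermis stood at 59.8 and 83.2 CPM at week 2, at 24.4 and 52.4 CPM at week 15 and at 41.98 and 50.4 CPM at week 25. All 6 UVB libraries lay above all 6 controls, with the closest pair at week 15, where 24.4 CPM faced 21.5 CPM. Aldh1a3 rose by 2.08 ± 0.36 as the mean over weeks (adjusted p = 0.00143), from 11.9 ± 7.92 to 52.0 ± 19.5 CPM (n = 6 each). It rose by 2.19 ± 0.60 at week 2 (adjusted p = 0.0319) and by 2.55 ± 0.62 at week 25 (adjusted p = 0.0178), while the 1.51 ± 0.59 at week 15 did not pass (adjusted p = 0.18), although it was called without a filter (1.52, adjusted p = 0.0422). The call at week 2 was lost without control 1, UVB 0 or UVB 1 (adjusted p = 0.141, 0.0636 and 0.158) and with only the 4 libraries compared (adjusted p = 0.0621), and that at week 25 without any 1 of its 4 libraries (adjusted p = 0.0663 to 0.101). For the mean over weeks, Aldh1a3 was called without any 1 of the 12 libraries in turn.

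Aldh1a3 was also the main transcript of its family in epidermis. Per kilobase it made up 95.6 to 99.5% of the sum of Aldh1a1, Aldh1a2 and Aldh1a3 in UVB epidermis and 51.1 to 96.4% in control epidermis. Aldh1a1 and Aldh1a2 held at most 9 counts each in any epidermis library, so these shares are imprecise. The 51.1% is from control 1 of week 2, with 15 Aldh1a3, 5 Aldh1a1 and 4 Aldh1a2 counts. In whole skin the Aldh1a3 share was 6.02 to 6.54% and in tumors 15.5 to 18.1%. There Aldh1a1, a retinal dehydrogenase of wide tissue distribution, made up 81.5 to 93.8%, at 34.7 and 136 CPM in whole skin and 73.2 and 87.6 CPM in tumors. In week 25 epidermis Aldh1a1 stood at 1.52 and 0.770 CPM in controls and 0.458 and 0.179 CPM under UVB. The Aldh1a3 level itself did not pass a test between tumors (27.2 and 27.04 CPM) and UVB epidermis (-0.77 ± 0.62, adjusted p = 0.395), with no overlap of the libraries, and was called lower when only these 4 libraries were fitted (-0.74, adjusted p = 0.00432). Fibroblast markers, which summed to 570 and 1087 CPM in whole skin and 1136 and 1531 CPM in tumors, were high in the same libraries as Aldh1a1; their part in its level was not tested.

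**Figure D3:**
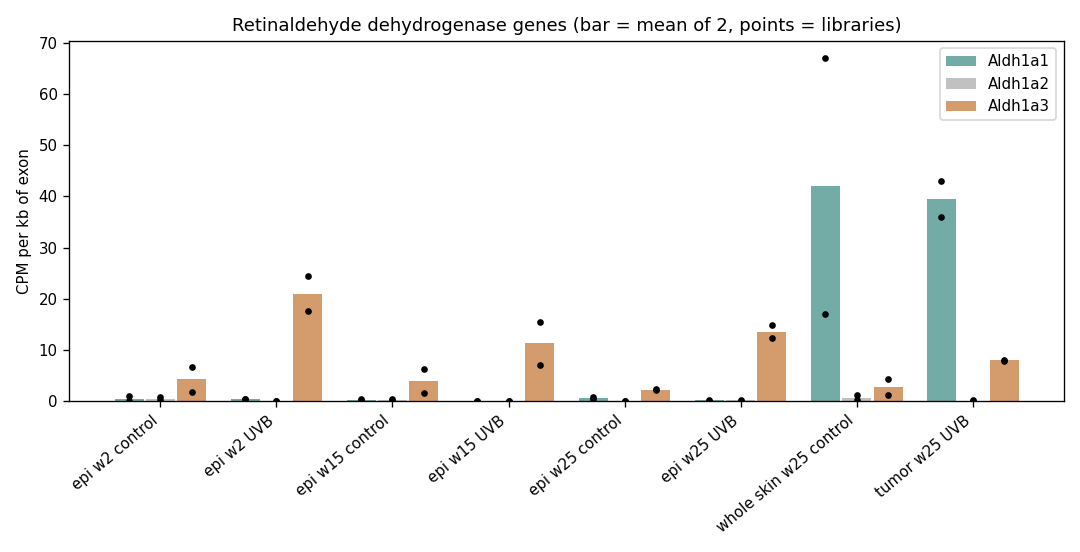
Aldh1a1, Aldh1a2 and Aldh1a3 in CPM per kilobase of exon in the 8 groups; bars are means of 2 libraries and points the libraries. Aldh1a3 is the tallest bar in every epidermis group, and Aldh1a1 in whole skin and tumor.

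Cyp26b1 encodes the P450 enzyme that oxidizes retinoic acid for removal. Control epidermis stood at 136 and 236 CPM at week 2, at 270 and 159 CPM at week 15 and at 202 and 209 CPM at week 25. UVB epidermis stood at 43.5 and 29.7 CPM at week 2, at 43.2 and 29.3 CPM at week 15 and at 45.2 and 43.8 CPM at week 25. The 6 UVB libraries lay between 29.3 and 45.2 CPM, all below the lowest control at 136 CPM. Between weeks 2 and 25 neither the controls (adjusted p = 0.75) nor the UVB libraries (adjusted p = 0.66) passed the test. Cyp26b1 fell by 2.37 ± 0.34 at week 2 (adjusted p = 0.00417), by 2.58 ± 0.33 at week 15 (adjusted p = 0.00545) and by 2.24 ± 0.33 at week 25 (adjusted p = 0.00282). As the mean over weeks it fell by 2.40 ± 0.19 (adjusted p = 2.28e-05), 39.1 ± 7.47 against 202 ± 49.2 CPM (n = 6 each). Leaving out UVB 1 moved the adjusted p to 0.0507 at week 2 and to 0.0846 at week 15. Cyp26b1 made up 96.1 to 100% of the Cyp26 transcripts per kilobase in each library, and Cyp26a1 reached at most 3 counts in any of them.

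Hair follicle markers moved with Cyp26b1. The 10 markers summed to 726 to 2611 CPM in the 6 control epidermis libraries and to 31.4 to 378 CPM in the 6 UVB libraries. As the mean over weeks 9 of the 9 tested fell, with 15.1% of all genes called lower. Shh, a marker of the growing follicle, was at 0 in UVB epidermis at weeks 2 and 15. In whole skin the marker sums were 243 and 71.5 CPM beside 26.5 and 24.1 CPM of Cyp26b1, and in tumors 138 and 85.0 CPM beside 28.7 and 40.1 CPM. Within the controls the marker sum was higher at week 2 (2344 and 2611 CPM) than at week 25 (1281 and 726 CPM), while the Cyp26b1 levels of these weeks overlapped. The part of hair follicle RNA in the Cyp26b1 result was not tested.

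**Figure D4:**
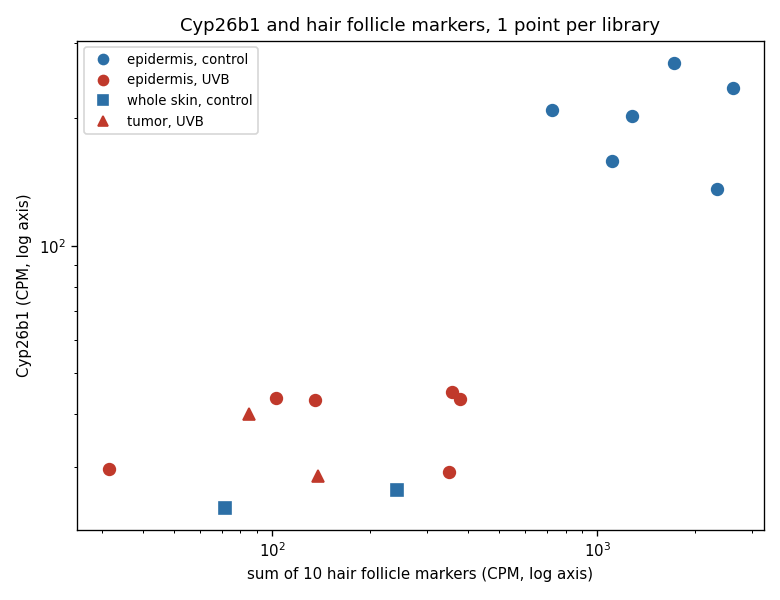
Cyp26b1 against the sum of 10 hair follicle markers, both in CPM on log axes, 1 point per library. The 6 control epidermis libraries lie at 136 CPM of Cyp26b1 or more and 726 CPM of markers or more, and the other 10 libraries at 45.2 CPM or less and 378 CPM or less.

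The balance of the storage and breakdown transcripts lay on different sides in control and UVB epidermis. Per kilobase, Lrat over Cyp26b1 was 0.224 and 0.107 in control epidermis at week 2, 0.0537 and 0.0892 at week 15 and 0.0599 and 0.0693 at week 25. In UVB epidermis the ratio was 2.44 and 5.02 at week 2, 0.995 and 3.29 at week 15 and 1.45 and 1.64 at week 25. All 6 control libraries had more Cyp26b1 than Lrat per kilobase, and 5 of 6 UVB libraries had more Lrat than Cyp26b1, with the sixth close to equal. Whole skin of unexposed mice had ratios of 1.55 and 1.54, between those of week 25 UVB epidermis, and tumors 2.16 and 1.62. The ratio combines 2 genes already tested and carries no test of its own, and it is a ratio of transcripts that says nothing measured about retinol or retinoic acid amounts.

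**Figure D5:**
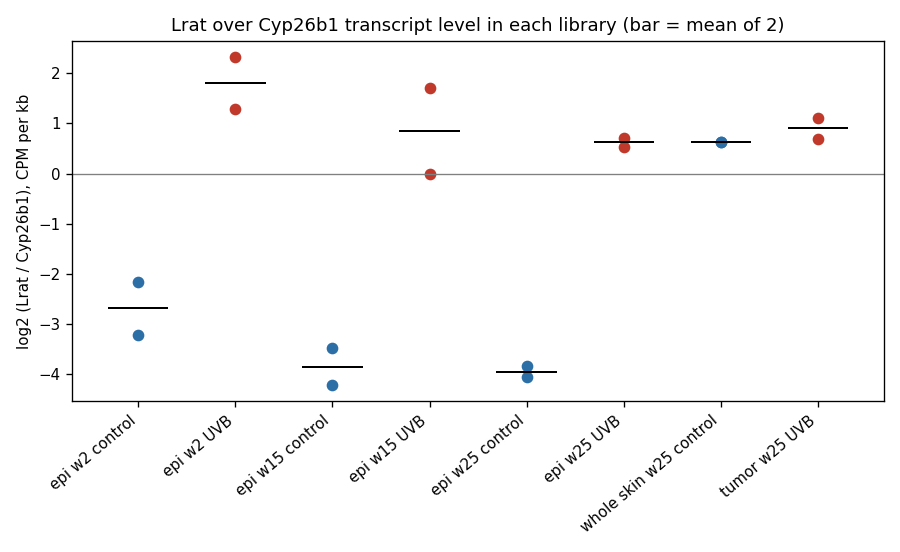
Log2 of Lrat over Cyp26b1, both in CPM per kilobase of exon, in each library of the 8 groups; red is UVB, blue is control and bars are means of 2. Control epidermis lies between -4.22 and -2.16, and the UVB epidermis, whole skin and tumor libraries between -0.01 and 2.33.

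Rarg and Rxra encode the retinoic acid receptor and the partner receptor that are most abundant in epidermis. Rarg ranged from 306 to 362 CPM in control (median 350) and from 288 to 329 CPM in UVB epidermis (median 308), with n = 6 each, and the arms overlapped. Its mean over weeks differed by -0.17 ± 0.08 (adjusted p = 0.107), although DESeq2 called it (adjusted p = 0.0255), as it did at week 2 (adjusted p = 0.0408). Rxra ranged from 351 to 473 CPM in control and from 327 to 391 CPM in UVB epidermis, and differed by -0.15 ± 0.09 (adjusted p = 0.221). At week 25 both Rxra controls (411 and 473 CPM) lay above both UVB libraries (357 and 348 CPM), a difference of -0.35 ± 0.14 that did not pass (adjusted p = 0.0964) and that DESeq2 called (adjusted p = 0.032). Per kilobase, Rarg made up 91.0 to 96.0% of the 3 retinoic acid receptor transcripts in epidermis and 83.2 to 86.2% in whole skin and tumors. Rxra made up 59.3 to 71.5% of the 3 retinoid X receptor transcripts in epidermis and 42.1 to 55.0% in whole skin and tumors.

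Tumors differed from UVB epidermis of week 25 in 4 of the 9 genes, all lower, with 12.7% of all 15126 genes tested called lower, 16.8% higher and 29.5% in either direction. Dhrs9 stood at 8.21 and 12.4 CPM in tumors against 42.7 and 62.3 CPM in UVB epidermis, and fell by 2.34 ± 0.28 (adjusted p = 6.7e-05). Rarg stood at 163 and 180 CPM against 309 and 329 CPM, and fell by 0.90 ± 0.16 (adjusted p = 0.00119). Crabp2 fell by 0.76 ± 0.18 (adjusted p = 0.00668) and Rxra by 0.59 ± 0.15 (adjusted p = 0.009). The libraries of tumor and UVB epidermis did not overlap for any of the 9 genes, called or not. With 2 libraries in each group, and the share of all genes without overlap not counted, this says nothing particular about the 9 genes. The 2 genes that parted UVB from control epidermis most firmly stayed uncalled between tumor and UVB epidermis, Lrat at -0.11 ± 0.29 (adjusted p = 0.814) and Cyp26b1 at -0.37 ± 0.31 (adjusted p = 0.42). Tumors held 1871 and 2012 CPM of differentiated keratinocyte markers and UVB epidermis of week 25 held 3146 and 3887 CPM; the part of tissue makeup in these differences was not tested. Without UVB epidermis 1 or without tumor 0, the calls of Crabp2 (adjusted p = 0.0689 and 0.0565) and Rxra (adjusted p = 0.0534 and 0.119) were lost.

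Whole skin differed from control epidermis of week 25 in 6 of the 9 genes, with 55.6% of all genes tested called (31.9% higher, 23.7% lower). Lrat rose by 1.56 ± 0.31 (adjusted p = 0.00103), at 45.3 and 41.0 CPM in whole skin against 13.3 and 16.02 CPM. Cyp26b1 fell by 3.02 ± 0.33 (adjusted p = 1.43e-05), at 26.5 and 24.1 CPM against 202 and 209 CPM. Dhrs9 fell by 4.40 ± 0.30 (adjusted p = 1.41e-06), the largest fall of the 9 genes, at 7.33 and 4.10 CPM against 119 and 130 CPM. Rarg, Rxra and Crabp2 fell by 1.09 ± 0.16, 1.09 ± 0.15 and 0.93 ± 0.18 (adjusted p = 0.000133, 6.62e-05 and 0.000903). The whole table was shifted too, with a median of 0.18 over all genes tested. Dermis, fat and muscle are part of whole skin and not of separated epidermis, and fibroblast and muscle markers were high there, as given above; their part in these differences was not tested.

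Between tumors and whole skin, edgeR called 0 of 14661 genes (0%) and none of the 9, with 813 genes at an unadjusted p under 0.05, Lrat among them, and 63 called by DESeq2. Lrat stood at 68.3 and 71.6 CPM in tumors and 45.3 and 41.0 CPM in whole skin, a difference of 0.61 ± 0.23 (adjusted p = 0.891), without overlap. Aldh1a3 stood at 27.2 and 27.04 CPM against 4.34 and 14.6 CPM (1.47 ± 0.59, adjusted p = 0.892). The 2 whole skin libraries differed from each other by a chi-square of 46.2 per degree of freedom, the highest of the 8 groups. Without whole skin 0, Lrat, Dhrs9 and Aldh1a3 were called (log2 of 0.71, 1.26 and 0.83), and without whole skin 1, Lrat, Aldh1a3 and Rdh10 (log2 of 0.54, 2.56 and -0.74); each then rests on a single whole skin library that is assumed to vary as the tumors do.

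The other genes of retinoid metabolism were described from a list of 50, of which 39 were tested in epidermis. As the mean over weeks 5 rose and 8 fell, where 14.4% of all genes were called higher and 15.1% lower, and the median log2 was -0.16 beside -0.02 over all genes. Of 7 binding and uptake genes tested 3 rose and 1 fell. Rbp2 and Rbp7, which encode cellular carriers of retinol, rose by 0.84 ± 0.14 (adjusted p = 0.00101) and 2.62 ± 0.44 (adjusted p = 0.0013). Bco1, which cleaves carotene to retinal, fell by 1.66 ± 0.28 (adjusted p = 0.00139). Of 6 genes of ester making and hydrolysis 0 rose and 1 fell, Pnpla2. Of 15 retinol and retinal converting genes 1 rose and 4 fell, and of 10 receptors and cofactors 0 rose and 2 fell. The 1 breakdown gene tested, Cyp2s1, rose, and 0 of 3 other retinal oxidation genes could be tested.

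In tumors against UVB epidermis 44 of the 50 pathway genes were tested, and 10 rose and 10 fell (16.8% and 12.7% of all genes). Of 15 retinol and retinal converting genes 1 was higher and 6 were lower, and of 10 binding and uptake genes 5 were higher and 1 was lower. The 44 include genes not tested in epidermis, such as Rxrg (194 counts in tumors and 0 in UVB epidermis). Those genes passed the filter through tumor or whole skin libraries, where they are high, so the counts are descriptions. Aldh1a1 rose by 7.85 ± 0.92 (adjusted p = 5.93e-05) from 4 counts in all in UVB epidermis, and passed the filter through its tumor and whole skin libraries. The dehydrogenase genes Sdr16c5 and Rdh13 fell by 0.99 ± 0.15 and 1.54 ± 0.27 (adjusted p = 0.000332 and 0.000985), and Bco1 fell by 3.38 ± 0.55 (adjusted p = 0.000545). In whole skin against control epidermis 13 of the 44 rose and 13 fell, beside 31.9% and 23.7% of all genes. There 1 of the 15 converting genes rose and 7 fell, and 7 of the 10 binding and uptake genes rose and 1 fell. The same limit holds there, with Rxrg at 361 counts in whole skin and 0 in control epidermis. Aldh1a1 rose by 6.21 ± 0.79 and Cd36, a fatty acid and carotenoid transporter, by 3.77 ± 0.57, while the receptor coactivator gene Ncoa2 fell by 1.82 ± 0.24 and the fatty acid receptor gene Ppard by 1.19 ± 0.18 (adjusted p = 3.85e-05, 0.000135, 5.1e-05 and 0.000109). Between tumors and whole skin 0 of the 44 were called.

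A list of 13 genes known to respond to retinoic acid in some cell types had 8 tested in epidermis. As the mean over weeks 3 were called higher and 1 lower, where 29.5% of all genes were called, and the median log2 was -0.37 beside -0.02 over all genes. The growth factor gene Hbegf rose by 0.42 ± 0.13 (adjusted p = 0.031). The mucosal keratin gene Krt13, also called higher, passed the filter through its UVB libraries, and its counts are given as a description. Both libraries of an arm together held 10 Krt13 counts under UVB and 0 in controls at week 2, 12 and 2 at week 15, and 26 and 3 at week 25. Dhrs3, which reduces retinal to retinol, fell by 0.58 ± 0.14 (adjusted p = 0.00854). Rarb differed by -0.74 ± 0.27 (adjusted p = 0.0562), at 2.02 against 3.39 CPM, and Cyp26a1 was too low to be tested.

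Among the same 13 genes, 12 were tested in tumors against UVB epidermis, and 3 were called higher and 0 lower, with 29.5% of all genes called. The transglutaminase gene Tgm2 rose by 5.59 ± 0.73 (adjusted p = 0.000122), at 207 against 4.27 CPM. Cd38, which encodes an enzyme on the surface of immune cells, was 36.3-fold higher in CPM (95% counting interval 12.1 to 178, from 3 counts in UVB epidermis). Rarres2, which encodes the chemoattractant chemerin, was 150-fold higher (41.3 to 1250, from 2 counts). Cd38 and Rarres2 passed the filter through tumor and whole skin libraries, where they are high. Their values and calls, here and in whole skin, are given as a description. In whole skin against control epidermis 5 were called higher and 2 lower, with 55.6% of all genes called. Tgm2 rose by 6.74 ± 0.81, the cofactor gene Nrip1 fell by 2.33 ± 0.45 (adjusted p = 2.68e-05 and 0.000736), and Rarres2 was 205-fold higher (36.4 to 8120, from 1 count).

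Genes whose pattern over the 16 libraries lay nearest to that of the 3 widest-ranging members were found by the root mean square difference of log2 CPM after each gene's mean was subtracted, among 11588 candidates. Among the 3 nearest to Lrat were Cd200, a surface glycoprotein gene (0.35), and Duoxa1, a maturation factor gene of the dual oxidases (0.42), where the median over all candidates was 1.19. Nearest to Dhrs9 were Adgrf2, an adhesion receptor gene (0.36), the transcription factor gene Foxo3 (0.44) and Megf9 (0.47), with a median of 1.49. Nearest to Aldh1a3 were Fgfbp3 (0.61), the kallikrein protease gene Klk12 (0.64) and Jakmip2 (0.67), with a median of 1.33. All of these values share the same libraries and scaling and describe likeness of pattern only.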

How the data were processed

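Gene counts from 16 RNA-seq libraries were used. Per the submitters' processing notes, HISAT2, Picard, featureCounts and DESeq2 were used on mm10, and per the file headers the deposited counts come from alignments with duplicates removed. Not given in the sources used here are versions, strand setting, multi-mapping and annotation release, so reads of overlapping, antisense or near-identical genes may be shared between them.

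The analysis used edgeR 4.0.16 in R 4.3.3. The filter filterByExpr had a minimum count of 10 and a minimum total of 15, TMM scaled the libraries, and edgeR's quasi-likelihood F test was used with Benjamini-Hochberg adjustment over all genes tested and a threshold of 0.05. Log2 values carry edgeR's prior count of 0.125. The 12 epidermis libraries were fitted together for UVB against control at each week, for differences between weeks, and, with week and treatment as additive terms, for the mean over weeks. A fit of 16 libraries gave whole skin against control epidermis and tumor against UVB epidermis, and one of 4 gave tumor against whole skin. CPM use TMM sizes, and CPM per kb divide by the exon bases of the table. A pseudocount of 0.5 CPM was used for likeness of patterns, over genes of mean 5 CPM or more. Counting intervals are exact, at 95%, and cover counting error only.

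The members and the lists were chosen with earlier results of these data known, so list counts are descriptions and no list was tested. All 9 members are named. From each list the 4 genes with the smallest p are named for the mean over weeks and for the comparisons of tumor with UVB epidermis and of whole skin with control epidermis, where called; some genes that this rule takes are not reported here. Pnpla2, Rarb, Cyp26a1, Cyp2s1 and Shh were named after their values were seen, as were the genes under other observations. The lists cover the retinoid pathway, retinoic acid targets, and markers of basal and differentiated keratinocytes, sebaceous gland, hair follicle, fibroblasts, adipocytes, muscle, endothelium, macrophages, dendritic cells, T cells, melanocytes and proliferation. Alternatives were DESeq2 1.42.0, RLE size factors, no filter, a replicate block, other sets of libraries and leaving out each library. Procedures were tested on simulated data.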

Additional observations from a re-analysis of the deposited data

Results flagged for a closer look

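Dhrs9 is listed here because its UVB effect differed between weeks by a test of the difference itself. The effect at week 25 minus that at week 2 was -2.49 ± 0.27 on the log2 scale (edgeR's quasi-likelihood test, adjusted p = 0.00495). Both UVB libraries were above both controls at week 2 and below both at week 25.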

How the results depend on the processing

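The mean over weeks kept its 4 called members under all alternatives (DESeq2 added Rarg), with 2816 to 4470 genes called when a library was left out, and whole skin against control epidermis kept 6 members in each leave-one-out fit (6225 to 8923 genes). Leaving out 1 library moved the called members at week 2 from 2 to 6 (125 to 4377 genes), at week 15 from 1 to 3 (26 to 1463) and at week 25 from 3 to 4 (519 to 976). It moved them from 1 to 2 for control time (155 to 4588), to 0 for UVB time (0 to 27), from 2 to 4 for tumor against UVB epidermis (2089 to 3405) and from 0 to 3 for tumor against whole skin (5 to 5488). Of the differences of effects, week 25 minus 2 kept 1 member (71 to 3454 genes), week 15 minus 2 had 0 to 1 (0 to 800) and week 25 minus 15 had 0 (0 to 1).

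DESeq2 called 1000 genes at week 15, 1758 for week 25 minus 2, 49 and 62 for the other differences of effects (1 member each, Dhrs9), 2959 for control time (3 members), 1154 for UVB time and 63 for tumor against whole skin. Without a filter the counts were 1146, 1612, 26, 15, 2808 (3 members), 1128 (2 members) and 1. With all 16 libraries they were 234 at week 15, 1779 at week 25, 517 for week 25 minus 2, 864 for control time, 7 for tumor against whole skin and, for UVB time, 0 members. With the 4 libraries compared they were 684 at week 2, 4562 at week 25 and 6974 for tumor against UVB epidermis. The labels do not say whether the numbers 0 and 1 pair the samples. Correlations of deviations were -0.10, -0.03, 0.28 and -0.06, which cannot decide it because each rests on 1 pair of groups. With a replicate block edgeR called 2 members for control time (Lrat added, -1.11, adjusted p = 0.0452). It also called Stra6 at week 25 (-2.11, adjusted p = 0.0409) and 235 genes for tumor against whole skin. The causes were not tested. All counts of called members in this section include Stra6, which passed the filter through its control libraries and is left out of the counts in the Results.

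Some members near 0 changed sign while uncalled in the main fit. Rxra at week 2 was 0.041 without a filter and 0.028 with all 16 libraries, Crabp2 at week 15 was 0.01001 without a filter, 0.0014 with 4 libraries and 0.0114 with 16, and Rarg between tumor and whole skin was 0.026 with 16. Leaving out 1 library gave, at week 2, -0.49 to 0.063 for Crabp2, -0.15 to 0.12 for Rdh10 and -0.063 to 0.11 for Rxra. At week 15 it gave -0.20 to 0.063 for Dhrs9, -0.11 to 0.13 for Crabp2, -0.52 to 0.0103 for Rdh10 and -0.071 to 0.0015 for Rarg, and at week 25 -0.041 to 0.11 for Crabp2. For the mean over weeks it gave -0.27 to 0.18 for Dhrs9 and -0.12 to 0.039 for Crabp2. For whole skin against control epidermis it gave -0.84 to 0.92 for Aldh1a3 and -1.001 to 0.71 for Stra6, and for tumor against whole skin -0.28 to 0.23 for Rarg and -0.0042 to 0.20 for Rxra.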

Other observations

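Other steps of the pathway also differed in epidermis; these genes were chosen after their values were seen. Adh1, an alcohol dehydrogenase gene that can oxidize retinol, stood at 41.5 to 97.8 CPM in the 6 control and at 5.38 to 37.2 CPM in the 6 UVB libraries, and fell by 1.82 ± 0.44 as the mean over weeks (edgeR, adjusted p = 0.00886). Adh7, which encodes another retinol-active alcohol dehydrogenase, had the order of effects seen in Dhrs9. It stood at 9.70 and 14.0 CPM in controls and 17.7 and 23.1 CPM under UVB at week 2, and at 36.8 and 25.7 against 13.4 and 9.47 CPM at week 25, a difference of effects of -2.26 ± 0.58 (adjusted p = 0.041). Cyp2s1, which encodes a P450 enzyme that can act on retinoic acid, was higher under UVB at 19.5 against 12.5 CPM (0.59 ± 0.19, adjusted p = 0.039), with overlapping libraries.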
